A study of Mus musculus with 6 samples.

Results

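Ccl5-positive regulatory T (Treg) cells were taken as cells with 2 or more unique molecular identifiers (UMIs, counted RNA molecules) of Ccl5. They also had 200 or more detected genes, under 10% of their UMIs from mitochondrial genes, and 0 UMIs of Cd79a, a B cell gene, and of Lyz2, a myeloid gene. By this rule 630 of the 10162 cells within these limits were Ccl5-positive, a share of 6.20% (exact Clopper-Pearson 95% interval 5.74% to 6.69%), and the whole table held 10685 cells. They were set beside 8607 Ccl5-negative cells, which met the same limits and had 0 Ccl5 UMIs. A further 925 cells with 1 Ccl5 UMI belonged to neither group. The cells were selected on their own Ccl5 counts, so Ccl5 was left out of all totals and comparisons, and every value below is a description without a significance test.

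The samples were EGFP+ Treg cells from the spleens of C57BL/6 mice aged 18–21 weeks after birth, sorted by flow cytometry after CD4+ T cell enrichment and sequenced with the 10x Genomics Chromium 3′ kit. Of the samples, 3 came from cKO mice (Bach2fl/fl Foxp3EGFP-Cre-ERT2) and 3 from WT mice (Bach2+/+ Foxp3EGFP-Cre-ERT2). Both genotypes received tamoxifen and carried the EGFP-Cre-ERT2 cassette at Foxp3, so the reporter and the inducible recombinase follow Foxp3 expression in all of them. The cells fall into 6 sets by the suffix of their barcode, but no set could be tied to a sample by its label. The genotypes are therefore not compared here, the table counts as 1 sample, and every interval covers counting error only.

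Treg cells restrain immune responses under the transcription factor Foxp3. Resting Treg cells recirculate through lymphoid organs with homing receptors such as CCR7, and activated, or effector, Treg cells lose these and gain receptors for inflamed tissue. CCL5 (RANTES) is a chemokine that draws T cells and other leukocytes to inflamed tissue, and it is best known from memory CD8 T cells and natural killer (NK) cells. CXCR3, a receptor for interferon-induced chemokines, is a target of the transcription factor T-bet (Tbx21), and a Treg state that uses T-bet has been described at sites of type 1 inflammation.

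The 6 sets held 1564 to 1778 cells within the limits. The Ccl5-positive share was 3.73% in set 1, 3.80% in set 2 and 5.57% in set 3. It was 6.65% in set 4, 11.7% in set 5 and 5.95% in set 6. Ccl5-positive cells thus occurred in all 6 sets, with 65 to 196 cells each, and set 5 stood above the others. Sets 1, 2 and 3 all lay below sets 4, 5 and 6, although the intervals of sets 3 and 6 overlapped (4.55% to 6.74% and 4.83% to 7.24%). Median depth without Ccl5 was 1965.5 UMIs in Ccl5-positive cells, against 2079 in Ccl5-negative cells, and the median number of detected genes was 911.5 against 914. In all, 63 barcodes occurred in more than 1 set and touched 14 Ccl5-positive cells. As a rough measure of free RNA, 1.72% of 116 cells with 2 or more UMIs of Cd79a or of Lyz2 had 2 or more Ccl5 UMIs (interval 0.209% to 6.09%, median depth 2025.5 UMIs). That share rests on 2 cells, and 1 of them, a Lyz2 cell, had 10 or more Ccl5 UMIs. Whether its Ccl5 was free RNA was not tested. With 1 Ccl5 UMI as the limit the shares were 15.3% of cells within the limits (median depth 2082.5 UMIs) and 11.2% of those 116 cells.

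**Figure D1:**
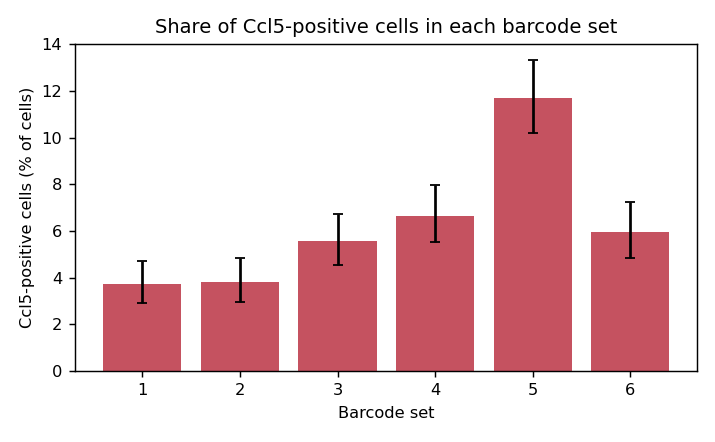
Share of cells with 2 or more Ccl5 UMIs in each of the 6 barcode sets, in percent of the cells within the limits, with exact 95% intervals for counting error. Set 5 stood at 11.7%, and the other sets lay between 3.73% and 6.65%.

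Ccl5 (chr11:83525778-83530518, minus strand, mm10) was unevenly spread among the Ccl5-positive cells. Their median was 4 Ccl5 UMIs and the highest cell had 389. Of 6241 Ccl5 UMIs in cells within the limits, 5316 (85.2%) lay in the Ccl5-positive cells. The rule left fewer than 2 Ccl5 UMIs in every other cell, so that share follows in part from the selection and is no evidence of uneven spread. Most Ccl5-positive cells were close to the limit of the rule: 181 had 2 UMIs, 173 had 3 to 4, 142 had 5 to 9 and 134 had 10 or more.

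Nearly all Ccl5-positive cells carried a transcript of the Treg programme. A UMI of Foxp3, Ikzf2, Il2ra, Ctla4 or Tnfrsf18 was present in 96.7% of Ccl5-positive cells, against 92.7% of Ccl5-negative cells. Ikzf2, which encodes the Treg factor Helios, was read in 90.2% of Ccl5-positive cells, against 77.4% of Ccl5-negative cells and 39.7% of the Cd79a or Lyz2 cells. Foxp3 itself was rarely read in either group, in 4.60% of Ccl5-positive cells and 4.80% of Ccl5-negative cells, and Cd4 in 27.6% and 26.1%.

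Levels are UMIs of a gene per 1000000 UMIs of the cell group (CPM). The log2 ratio of Ccl5-positive over Ccl5-negative cells was formed within barcode sets (Mantel-Haenszel), and its intervals are 95% counting intervals. A gene was called higher or lower when the ratio reached 1.5-fold and had the same direction in 6 of 6 sets. Of 8706 genes with 100 or more UMIs, 114 were called higher (1.31% called) and 132 lower (1.52% called), and the median log2 ratio of all of them was 0.06. The rule controls no error rate. In simulated data it also called 136 of 8508 genes made without a change, both directions together, so a single call is a description. Those data held counting error only, without UMIs gathered in a few cells. With ratios centred on the median gene the split was 86 higher and 164 lower. With totals that leave out ribosomal protein and mitochondrial genes it was 84 higher and 172 lower. Of the 132 genes called lower, 76 had no UMI in the Ccl5-positive cells of at least 1 set, and 81 were under 20 CPM in both groups, so low counts make up much of that number. Among the 5249 genes at 20 CPM or more in either group, 78 were called higher (1.49%) and 51 lower (0.972%). Of the 19 Treg identity genes tested, Swap70, a guanine nucleotide exchange factor, was called higher and Il2ra lower, with a median log2 ratio of 0.11. The call of Swap70 (0.59) ended under 16 of 26 alternatives. Ikzf2 had 1467 CPM in Ccl5-positive cells and 989 CPM in Ccl5-negative cells (log2 ratio 0.53) and was not called.

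The 5 marker genes that came with the definition of these cells, Cxcr3, Lilrb4a, Id2, Serpina3g and Asb2, were all called higher. They were picked with results of these data known, so their direction is no independent evidence. Cxcr3 (chrX:101731535-101734269) had 179 CPM in the lowest set, a median of 259.7 and 356 in the highest in Ccl5-positive cells, against 56.1, 84.6 and 111 CPM in Ccl5-negative cells. Its log2 ratio was 1.56 (interval 1.40 to 1.72), and the 2 groups of sets did not overlap. A Cxcr3 UMI was present in 39.8% of Ccl5-positive cells, against 14.0% of Ccl5-negative cells. After every cell was thinned to 1000 UMIs these shares were 23.6% and 7.39%, against 4.42% in the Cd79a or Lyz2 cells. The thinning left out 19, 262 and 3 shallower cells of these groups, in that order.

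Lilrb4a (chr10:51490956-51496611), an inhibitory receptor of the leukocyte immunoglobulin-like family, had 71.7 CPM in the lowest set, a median of 97.1 and 135 in the highest in Ccl5-positive cells. In Ccl5-negative cells the same 3 values were 11.6, 19.9 and 41.0 CPM. The sets did not overlap, and the log2 ratio was 1.96 (interval 1.69 to 2.22). Its neighbour Lilr4b moved alike, with 29.5, 37.9 and 45.1 CPM in Ccl5-positive cells, against 2.66, 4.40 and 15.6 CPM in Ccl5-negative cells, and a log2 ratio of 2.19. These genes are close copies, so how reads were divided between them is uncertain.

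Id2 (chr12:25093799-25097140), an inhibitor of E-protein transcription factors that favours effector differentiation, had 194, 345 and 453 CPM (lowest, median and highest set) in Ccl5-positive cells, against 77.2, 109.6 and 157 CPM in Ccl5-negative cells. Its log2 ratio was 1.56. Serpina3g (chr12:104236245-104241939), an intracellular inhibitor of cysteine proteases, had 247, 305 and 425 CPM in Ccl5-positive cells, against 81.9, 99.1 and 151 CPM in Ccl5-negative cells, with a log2 ratio of 1.52, and its close copy Serpina3f may share its reads. For both genes every set of Ccl5-positive cells lay above every set of Ccl5-negative cells. Asb2 (chr12:103321142-103356001), part of a ubiquitin ligase, had 35.8, 49.4 and 103 CPM in Ccl5-positive cells, against 13.5, 22.8 and 42.5 CPM in Ccl5-negative cells. Its sets overlapped although each set had the same direction (log2 ratio 1.29).

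**Figure D2:**
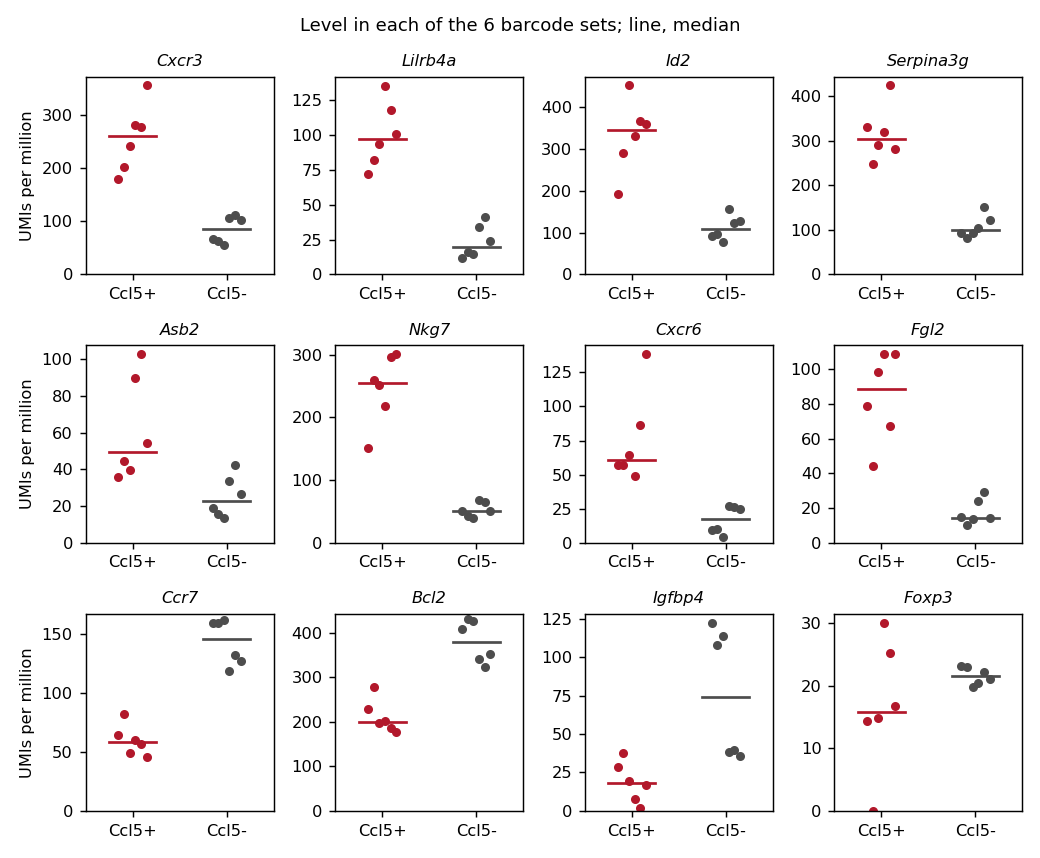
Level (CPM) of 12 genes in the Ccl5-positive (left) and Ccl5-negative (right) cells of each barcode set, 1 point per set, with the median as a line. Cxcr3, Lilrb4a, Id2, Serpina3g, Nkg7, Cxcr6 and Fgl2 do not overlap and are higher in Ccl5-positive cells, Ccr7 and Bcl2 do not overlap and are lower, and Foxp3 overlaps.

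Serpina3g and Serpina3f, another called member of this protease inhibitor cluster (log2 ratio 1.69), and Lilr4b are shown by the 250 bases before their RefSeq start, since close copies were higher together and these windows lie outside annotated gene bodies. Capitals mark matches to TTCNNNGAA, a STAT-type motif, in each window and to TGTGGTT (as AACCACA, a RUNX-type motif on the opposite strand) in the Serpina3f window. The windows are chr12:104235897-104236146, chr12:104214294-104214543 and chr10:51480362-51480611 of GRCm38.p6, all on the plus strand, in the order printed.
Serpina3g: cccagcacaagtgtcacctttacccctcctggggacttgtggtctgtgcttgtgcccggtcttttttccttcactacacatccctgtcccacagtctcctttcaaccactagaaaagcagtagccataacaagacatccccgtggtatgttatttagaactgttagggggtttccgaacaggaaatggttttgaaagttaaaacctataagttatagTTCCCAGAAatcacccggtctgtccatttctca
Serpina3f: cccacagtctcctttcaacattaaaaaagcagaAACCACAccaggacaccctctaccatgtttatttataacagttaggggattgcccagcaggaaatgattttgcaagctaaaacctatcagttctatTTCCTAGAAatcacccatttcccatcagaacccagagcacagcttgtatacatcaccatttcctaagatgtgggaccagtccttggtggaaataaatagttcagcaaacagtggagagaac
Lilr4b: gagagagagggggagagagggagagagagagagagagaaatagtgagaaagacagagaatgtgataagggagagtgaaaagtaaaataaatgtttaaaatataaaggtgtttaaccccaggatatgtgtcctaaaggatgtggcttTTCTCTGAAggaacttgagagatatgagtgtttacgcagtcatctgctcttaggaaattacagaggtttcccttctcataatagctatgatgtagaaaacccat
TTCNNNGAA, whose match is the same on both strands, occurred in 7.02% of all 32851 windows of this length in the RefSeq table. It was found for 13 of the 89 genes called higher that had a window (14.6%), 6 of 101 called lower (5.94%) and 481 of 6698 tested (7.18%). TGTGGTT or its complement occurred for 8 of 89 genes called higher (8.99%), 5 of 101 called lower (4.95%) and 4.03% of tested genes. AP-1-type TGANTCA stood at 5.62%, 2.97% and 4.88% in the same 3 groups, and T-box-type AGGTGTGA at 2.25%, 0% and 0.896%. No match overlapped another in the printed windows. A match is a run of letters and was not tested as a binding site.

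Of the 12 chemokine and lymphoid exit receptors tested, Cxcr3, Cxcr6 and Cxcr4 were called higher and Ccr7 and S1pr1 lower, with a median log2 ratio of 0.13. The shares called over all tested genes were 1.31% higher and 1.52% lower, and Cxcr3 is also a marker of these cells. The other 7 were not called, among them the tissue receptors Ccr2 (0.71, higher in 5 of 6 sets), Ccr4 (0.18), Ccr6 (-0.09) and Ccr8 (0.17) and the follicle receptors Cxcr5 (-0.16) and Gpr183 (-0.40). Cxcr6, the receptor for CXCL16 on effector T cells, had 48.8, 60.7 and 138 CPM (lowest, median and highest set) in Ccl5-positive cells, against 4.51, 17.6 and 26.7 CPM in Ccl5-negative cells, with a log2 ratio of 2.01 and no overlap. Cxcr4, which holds cells near CXCL12, was called on 15 UMIs (log2 ratio 0.78). UMIs of Cxcr3 and of Cxcr6 in the same cell were found in 6.19% of Ccl5-positive cells and 0.662% of Ccl5-negative cells.

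Ccr7 had 46.1, 58.5 and 82.3 CPM in Ccl5-positive cells, against 118, 146 and 162 CPM in Ccl5-negative cells (log2 ratio -1.25). S1pr1, the sphingosine-1-phosphate receptor used to leave lymphoid organs, was called lower at a log2 ratio of -0.97. Ccr3 and Ccr1, receptors of CCL5, were too sparse to be tested. Ccr3 had 13 UMIs in Ccl5-positive cells and 33 in Ccl5-negative cells, and Ccr1 had 3 and 6. Of the other chemokine ligands, Ccl4 had 16 UMIs in Ccl5-positive cells, in 5 cells, and 14 in Ccl5-negative cells, and Ccl3 had 9, in 2 cells, and 5. The levels were 10.8 and 0.699 CPM for Ccl4 and 6.08 and 0.250 CPM for Ccl3.

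Of the 16 T-bet and Th1 genes tested, 6 were called higher, Cxcr3, Bhlhe40 and Tbx21 among them, and Ifngr2 lower, with a median log2 ratio of 0.59. Among all tested genes 1.31% were called higher and 1.52% lower. Cxcr3 is also a marker of these cells, and the list was chosen with earlier results of these data known. Tbx21, which encodes T-bet, had 4.93, 13.8 and 19.0 CPM (lowest, median and highest set) in Ccl5-positive cells, against 1.78, 6.37 and 8.71 CPM in Ccl5-negative cells. That call rested on 20 UMIs in Ccl5-positive cells (log2 ratio 1.07, interval 0.37 to 1.76), and the sets overlapped. The interleukin-18 receptor chains were both called higher, Il18rap at a log2 ratio of 1.25 and Il18r1 at 0.60. The call of Il18rap ended under 4 of 25 alternatives, with limits of 1, 3 and 5 Ccl5 UMIs and without cells with UMIs of Cd8a, Cd8b1, Nkg7, Klrd1 or Klrb1c. Il12rb1, an interleukin-12 receptor chain, was not called (0.27, higher in 3 of 6 sets).

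The interferon-gamma receptor chains went in opposite directions. Ifngr1, the ligand-binding chain, had 197, 225 and 356 CPM in Ccl5-positive cells, against 109.8, 153 and 177 CPM in Ccl5-negative cells (log2 ratio 0.79). Ifngr2, the signalling chain, had 7.17, 10.2 and 12.7 CPM in Ccl5-positive cells, against 20.8, 23.0 and 24.8 CPM in Ccl5-negative cells (log2 ratio -1.17). Neither pair of sets overlapped. The values of Ifngr2 rested on 15 UMIs in Ccl5-positive cells, 1 to 5 in each set. Its call ended under 2 of 26 alternatives, with a limit of 1 Ccl5 UMI and after thinning to 1000 UMIs. Of the 19 interferon-gamma-inducible genes and the 18 type I interferon response genes tested, none was called, with median log2 ratios of 0.15 and 0.22. Ifng, on 16 UMIs in Ccl5-positive cells, was not called (log2 ratio 1.08, higher in 5 of 6 sets).

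Of the 17 regulators of effector Treg cells tested, 4 were called higher and none lower (median log2 ratio 0.21). They were Id2, Rora, Rbpj and Bhlhe40, while 1.31% of all tested genes were called higher. Id2 is also a marker of these cells, and Bhlhe40 was counted among the T-bet and Th1 genes too. Rbpj, the DNA-binding partner of Notch, had 50.7, 62.5 and 71.2 CPM (lowest, median and highest set) in Ccl5-positive cells, against 20.9, 26.5 and 34.0 CPM in Ccl5-negative cells, without overlap (log2 ratio 1.16). Bhlhe40, a helix-loop-helix repressor of effector T cells, had a log2 ratio of 0.98 and a call that ended under 5 of 26 alternatives, and Rora, a nuclear receptor, had 0.64. Gata3, the type 2 factor, had 132 CPM in Ccl5-positive cells and 127 CPM in Ccl5-negative cells. The level of Bach2, the gene floxed in the cKO mice, was 22.3 CPM in Ccl5-positive cells and 28.3 CPM in Ccl5-negative cells (log2 ratio -0.48, not called).

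Of the 17 inhibitory and suppressive genes tested, 4 were called higher and none lower (median log2 ratio 0.58). The share called higher over all tested genes was 1.31%, and the 4 include the marker Lilrb4a. Fgl2, a secreted suppressive mediator of Treg cells, had 44.3, 88.7 and 109 CPM in Ccl5-positive cells, against 10.4, 14.5 and 29.4 CPM in Ccl5-negative cells, without overlap (log2 ratio 2.07). Lilrb4a, the inhibitory receptor Cd160 (log2 ratio 0.63) and Penk, the enkephalin precursor (0.66), were the other 3. Pdcd1 (0.58), Lag3 (0.55), Tigit (0.09) and Ctla4 (0.16) were not called.

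Of the 12 granule and protease inhibitor genes tested, 3 were called higher, the protease gene Ctsw (log2 ratio 0.94) and both Serpina3 genes, and none lower (median 0.48). Serpina3g is also a marker of these cells, and 1.31% of all tested genes were called higher. Gzmb, granzyme B, had the largest ratio of those tested in that list but was not called. It had 68 UMIs in 30 Ccl5-positive cells (45.9 CPM), against 79 UMIs in Ccl5-negative cells (3.94 CPM), a log2 ratio of 3.53. In set 6 it stood at 8.38 CPM in Ccl5-positive cells and 8.57 CPM in Ccl5-negative cells. The 10 highest Ccl5-positive cells held 61.8% of its UMIs. Those 116 Cd79a or Lyz2 cells are too few to set a background level for Gzmb. A Gzmb UMI was present in 4.76% of Ccl5-positive cells and 0.616% of Ccl5-negative cells, against 0.862% of the Cd79a or Lyz2 cells. After thinning to 1000 UMIs the shares were 3.11%, 0.324% and 0% in the same order, and 0 of 113 cells leaves a share of up to 3.21% within its exact interval.

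Most listed genes of resting, lymphoid-homing T cells were lower. The list was chosen with earlier results of these data known, so its direction is no independent evidence. Of the 22 tested, 15 were called lower and none higher, with a median log2 ratio of -0.91. Over all tested genes 1.52% were called lower. Igfbp4, a binding protein of insulin-like growth factors that marks naive T cells, had 2.11, 18.2 and 38.0 CPM (lowest, median and highest set) in Ccl5-positive cells, against 35.5, 73.9 and 122 CPM in Ccl5-negative cells (log2 ratio -2.15). Its sets overlapped, and it also varied widely among the Ccl5-negative sets. Satb1, a chromatin organiser, Klf2, the factor that drives S1pr1, and Tcf7 and Lef1, the factors of naive T cells, had log2 ratios of -1.01, -0.77, -0.59 and -0.70.

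Cytokine receptor chains and apoptosis regulators were also among the called genes. The interleukin-6 receptor chains Il6ra and Il6st were lower, at log2 ratios of -1.36 and -0.86, as was Il2ra, the high-affinity interleukin-2 receptor chain, at -0.64. Il2ra had 44.3, 72.7 and 92.2 CPM in Ccl5-positive cells, against 93.9, 109.7 and 122 CPM in Ccl5-negative cells, and its call ended under 6 of 26 alternatives. Bcl2, which protects resting lymphocytes from death, had 176, 199.9 and 279 CPM in Ccl5-positive cells, against 323, 379 and 429.8 CPM in Ccl5-negative cells, without overlap (log2 ratio -0.85). Casp1, the inflammasome caspase, was higher (0.82).

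Of the 22 migration, adhesion and S100 genes tested, 4 were called higher (median log2 ratio 0.28). Among all tested genes 1.31% were called higher and 1.52% lower. S100a6, a calcium-binding protein of effector cells, had 405, 587 and 737 CPM in Ccl5-positive cells, against 145, 262 and 374 CPM in Ccl5-negative cells (log2 ratio 1.06). S100a11 (0.60) and the galectins Lgals1 (0.63) and Lgals3 (1.31) were the other 3, and S100a4 was not called, with 336 CPM in Ccl5-positive cells and 164 CPM in Ccl5-negative cells and opposite directions between sets. No gene of the 18 TCR response genes tested was called higher, and Myc was called lower (log2 ratio -0.71), a call that ended under 6 of 26 alternatives. Tnfrsf9, a receptor induced by T cell receptor signals, had a log2 ratio of 0.35 and was not called. None of the 19 cell cycle genes tested was called (median log2 ratio 0.85), and 1.75% of Ccl5-positive cells had 2 or more UMIs of mitotic genes, against 0.964% of Ccl5-negative cells.

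Nkg7, a granule membrane protein of cytotoxic lymphocytes, had the largest ratio of the called genes at 20 CPM or more. It had 151, 255.5 and 302 CPM (lowest, median and highest set) in Ccl5-positive cells, against 40.02, 49.96 and 67.9 CPM in Ccl5-negative cells, without overlap (log2 ratio 2.22). A Nkg7 UMI was present in 145 Ccl5-positive cells (23.0%) and 583 Ccl5-negative cells (6.77%). After thinning to 1000 UMIs the shares were 14.6% and 3.50%, against 2.65% in the Cd79a or Lyz2 cells.

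Cd8a and Klrd1, which define CD8 T and NK cells, were read in few cells of either group. Cd8a had UMIs in 1 of 630 Ccl5-positive cells and 4 of 8607 Ccl5-negative cells, and Klrd1 in 6 and 18 cells (0.952% and 0.209%). Klrd1 had 12.2 CPM in Ccl5-positive cells and 0.9985 CPM in Ccl5-negative cells. The summed level of the 12 CD8 T and NK markers in the table was 251 to 434 CPM over the sets of Ccl5-positive cells, against 71.9 to 106 CPM in Ccl5-negative cells. No marker of the 12 was at 0 in Ccl5-positive cells, and 11 had a higher level there. Of the 3 with enough UMIs to be tested, Nkg7 was called.

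Some cells with very many Ccl5 UMIs carried transcripts of CD8 T or NK cells. The Cd8a cell held 157 Ccl5 UMIs, 8 of Cd8b1, 17 of Gzma, 3 of Klrd1, 10 of Ly6c2 and 19 of Nkg7, and 0 of Ikzf2, Foxp3, Il2ra, Ctla4 and Tnfrsf18. None of the 6 Klrd1 cells had an Ikzf2 UMI. Of the 15 cells with 40 or more Ccl5 UMIs, 9 had Ikzf2, 4 had Klrd1 and 14 had Nkg7. In all 13 of the 630 Ccl5-positive cells had a UMI of Cd8a, Klrd1, Klrb1c, Klrk1, Gzma, Eomes or Prf1, against 85 of the 8607 Ccl5-negative cells. The 13 cells held 21 UMIs of Ikzf2 in all. Without these cells 123 genes were called higher and 129 lower, and 103 of the 114 and 112 of the 132 were among them. Limited to cells with an Ikzf2 UMI, 100 were called higher and 119 lower (74 and 80 of them also called in all cells), and Cxcr3, Lilrb4a, Id2, Serpina3g, Nkg7 and Fgl2 kept their calls. Without every cell with a UMI of Cd8a, Cd8b1, Nkg7, Klrd1 or Klrb1c, 103 were called higher and 133 lower, of which 51 and 57 were also called in all cells, and the calls of Rhoc, Neb, Lgals3, S100a6 and Il2ra, among others, ended.

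Markers of the other cell types were measured in the same way. The 5 B cell markers summed to 339 to 455 CPM in the sets of Ccl5-positive cells, against 228 to 320 CPM in Ccl5-negative cells, which was mostly Cd74, the class II invariant chain (361 and 217 CPM), while Cd79b stood at 36.5 and 39.0 CPM. The 10 myeloid markers summed to 486 to 604 CPM, against 450 to 554 CPM. Haemoglobin and other erythroid markers summed to 0 to 225 CPM in the sets of Ccl5-positive cells, against 2.07 to 5090 CPM in Ccl5-negative cells. Without cells with a UMI of Hbb-bs, 118 genes were called higher and 142 lower, of which 89 and 113 were also called in all cells. The part of the B cell and myeloid markers in the calls was not tested.

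Across classes of Ccl5 UMIs, Cxcr3 and Serpina3g were higher in each class with more Ccl5, and the cells with 1 UMI were close to those with 0. These levels were pooled over the 6 sets, and the sets were not equally represented in the classes. Set 5 gave 1234 of the 8607 cells at 0 Ccl5 UMIs and 44 of the 134 cells at 10 or more. Cxcr3 had 82.4 CPM at 0 Ccl5 UMIs, 99.8 at 1, 192 at 2, 255 at 3 to 4, 269 at 5 to 9 and 392 CPM at 10 or more. Serpina3g had 106, 117, 254, 275, 384 and 475 CPM in the same order. Lilrb4a differed in shape: 22.4, 29.95 and 32.4 CPM up to 2 UMIs, and 122, 146 and 147 CPM above. Nkg7 had 51.8, 71.5, 143, 91.8, 182 and 714 CPM, and 50.7% of the cells with 10 or more Ccl5 UMIs had a Nkg7 UMI.

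Resting genes ran the other way. Ccr7 had 144, 155, 92.5, 63.7, 32.2 and 31.9 CPM. Bcl2 had 383, 343, 270.4, 186, 217 and 115 CPM. Ikzf2 did not follow Ccl5 throughout, with 989, 1039, 1313, 1614, 1540 and 1418 CPM. Cells just inside the limit of 2 UMIs thus stood between those just outside it and the rest for Cxcr3, Serpina3g, Ccr7 and Bcl2. Without the 134 cells with 10 or more Ccl5 UMIs 112 genes were called higher and 125 lower, of which 59 and 72 were among the calls with them. Median depth was 1859 to 2208 UMIs across the classes.

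**Figure D3:**
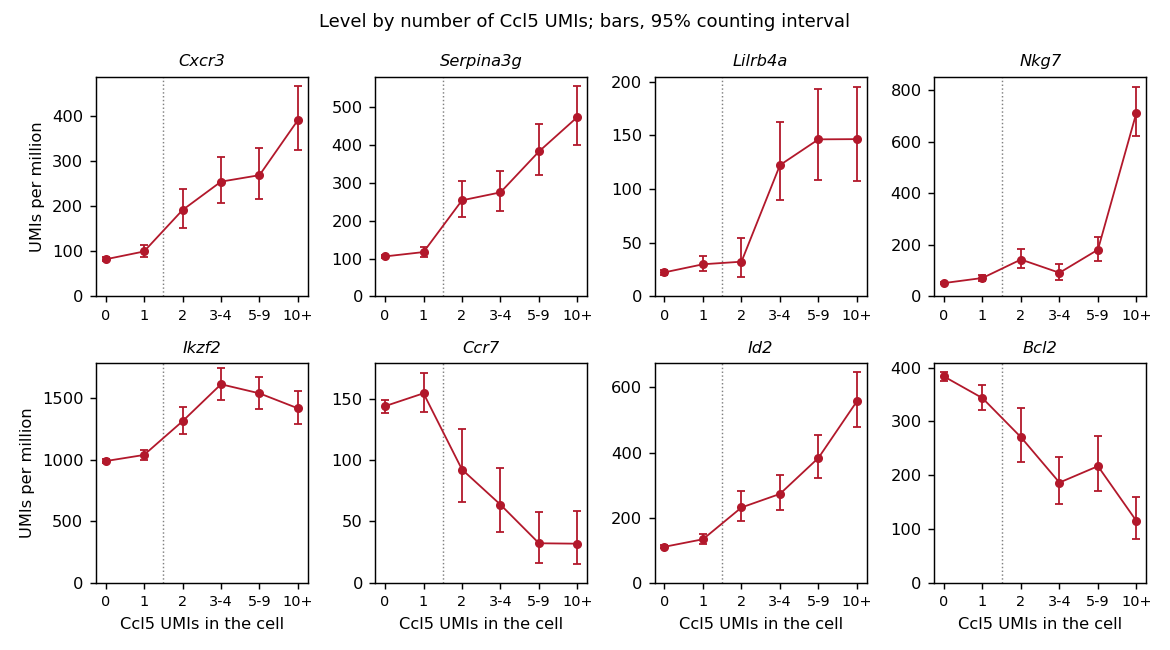
Level (CPM) of 8 genes in cells with 0, 1, 2, 3 to 4, 5 to 9 and 10 or more Ccl5 UMIs, with 95% counting intervals. The dotted line is the limit of the rule, and Cxcr3, Serpina3g and Id2 are higher, and Ccr7 and Bcl2 lower, to its right.

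Effector Treg cells are not all alike, so Ccl5-positive cells were also set beside 344 Ccl5-negative cells with a Ccr2 UMI, Ccr2 being a chemokine receptor of migratory effector cells. Median depth was 1965.5 UMIs in Ccl5-positive cells and 2179 UMIs in Ccr2-positive cells. Ccr2 was left out, and of 2965 genes tested 64 were called higher (2.16% called) and 98 lower (3.31% called). Of the 12 inhibitory and suppressive genes tested, 5 were called higher and 1, Vsir (log2 ratio -0.61), an inhibitory checkpoint molecule, lower, with a median log2 ratio of 0.26. Of the 8 granule and protease inhibitor genes tested, Ctsw, Serpina3g and the cystatin gene Cst7 were called higher and none lower (median 0.34). Lilrb4a had 71.7, 97.1 and 135 CPM (lowest, median and highest set) in Ccl5-positive cells, against 11.9, 26.0 and 44.2 CPM in Ccr2-positive cells (log2 ratio 1.85), and Serpina3g had 247, 305 and 425 CPM, against 35.8, 86.6 and 159.9 CPM (1.67). Neither pair overlapped, and Ctsw (1.92), Fgl2 (1.85), Penk (1.60), Rbpj (1.49), Nkg7 (1.44), Pdcd1 (1.21) and Cxcr3 (1.16) were also called higher.

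Of the 18 migration, adhesion and S100 genes tested, 11 were called lower in Ccl5-positive cells than in Ccr2-positive cells and none higher (median log2 ratio -0.82). Over all genes tested there 3.31% were called lower, and this list too was chosen with earlier results known. S100a4 had 100.3, 338 and 490.1 CPM in Ccl5-positive cells, against 943, 1238 and 1274 CPM in Ccr2-positive cells (log2 ratio -1.87). Il1rl1, the interleukin-33 receptor, had 6.33, 13.7 and 30.04 CPM in Ccl5-positive cells, against 34.6, 90.7 and 119 CPM in Ccr2-positive cells (log2 ratio -2.25). Klf2 (-1.77), Crip1 (-1.63), Lgals3 (-1.58), S1pr1 (-1.55) and the integrin gene Itgb1 (-1.32) were lower as well. Id2 and Cxcr6 were not called, at log2 ratios of -0.22 and -0.18, and their directions differed between sets. Without cells that had UMIs of Cd8a, Cd8b1, Nkg7, Klrd1 or Klrb1c, 39 genes were called higher.

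The second group for comparison were 1461 Ccl5-negative cells with a UMI of Tnfrsf9 (4-1BB), which follows recent T cell receptor signals, and their median depth was 2287 UMIs. Of 5223 genes tested, 76 were called higher (1.46% called) and 78 lower (1.49% called). All 5 markers were called higher, and Fgl2 (log2 ratio 2.61), Lgals3 (2.31), Cxcr6 (2.10), Nkg7 (1.56) and S100a6 (1.49) with them. Cxcr3 had 179, 259.7 and 356 CPM in Ccl5-positive cells, against 33.7, 73.2 and 95.7 CPM in Tnfrsf9-positive cells (log2 ratio 1.82). Of the 16 TCR response genes tested none was called higher and 4 lower, namely Il1r2 (-1.57), the signal-induced factor Egr2 (-1.01), Myc (-0.94) and the activation marker Cd83 (-0.99). Without cells that had UMIs of Cd8a, Cd8b1, Nkg7, Klrd1 or Klrb1c, 49 genes were called higher. The Ccl5-positive cells are the same in all 3 comparisons, the Ccr2 and Tnfrsf9 groups are parts of the Ccl5-negative cells, and 49 cells were in both.

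**Figure D4:**
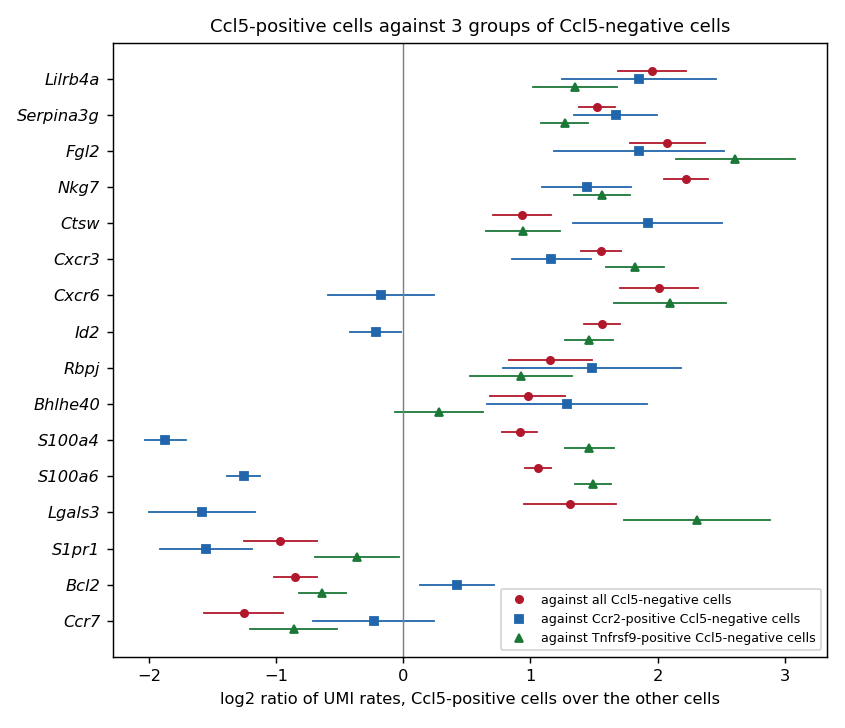
Log2 ratio of UMI rates of Ccl5-positive cells over all Ccl5-negative cells (circles), Ccr2-positive Ccl5-negative cells (squares) and Tnfrsf9-positive Ccl5-negative cells (triangles) for 16 genes, with 95% counting intervals. Lilrb4a, Serpina3g, Fgl2, Nkg7 and Cxcr3 lie above 0 in all 3, and S100a4, S100a6 and Lgals3 lie above 0 except against Ccr2-positive cells.

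Among the Ccl5-positive cells, 251 had a Cxcr3 UMI and 379 had none, at median depths of 2096 and 1857 UMIs. With Cxcr3 left out, 1847 genes were tested, of which 11 were called higher in cells with Cxcr3 (0.596% called) and 4 lower (0.217% called). Lgals1, a galectin of activated T cells, had 793, 1043 and 1338 CPM (lowest, median and highest set) in cells with Cxcr3, against 448, 551 and 673 CPM in cells without it (log2 ratio 0.96). Id3, a factor of resting Treg cells, had 16.8, 79.1 and 105 CPM in cells with Cxcr3, against 122, 153 and 176 CPM in cells without it (log2 ratio -1.01). Neither pair overlapped. The histone gene Hist1h2ap had 690 UMIs in cells with Cxcr3, 679 of them in 7 cells, and 11 in cells without it. Cells with 2 or more mitotic UMIs numbered 10 with Cxcr3 and 1 without, and without them 5 genes were called higher. Lilrb4a, Id2 and Serpina3g were not called, at log2 ratios of 0.29, 0.51 and 0.16.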

How the data were processed

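Expression was measured by droplet single-cell RNA-seq of sorted Treg cells. The deposited table of whole-number UMI counts per gene and cell was used. A second deposited table holds the authors' natural log values, that is the natural log of 1 plus the count scaled to a fixed cell total, and served only for an alternative on which cells to keep. The submitters' processing notes name mm10, FastQC, cutadapt, HISAT2, Cell Ranger and Seurat, without versions. The table has 14098 genes and 10685 cells. No doublet caller was run. Alternatives without the top 2% of cells by UMIs and without barcodes in more than 1 set bear on them.

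The members and all gene lists were chosen with earlier results of these data known. Summed UMIs of the groups were compared within barcode sets by the Mantel-Haenszel ratio, with numpy 2.4.6, scipy 1.17.1 and pandas 2.3.3 under Python 3.11.15, and the code was tested on simulated data. Ccl5-positive cells held 1480355 UMIs without Ccl5 and Ccl5-negative cells 20029882. Genes with under 100 UMIs over both groups were not tested. The direction in a set was taken from plain rates, a choice made after the data were seen. With 0.5 UMIs added to each group, as first done, 200 genes were called higher and 64 lower. Genes were named by 3 rules: the markers with Foxp3 and Bach2, the 12 largest called ratios each way at 20 CPM or more in either group, and the 4 ratios furthest from 1 in each list. Genes named outside these rules were chosen after their values were seen. Gene positions are from GENCODE vM21 (GRCm38, the same assembly as mm10) and promoter windows from RefSeq (GRCm38.p6). No window for Ccl5 was used here. Some genes of the lists are not reported here by name. The alternatives changed the Ccl5 limit, depth, scaling, UMI minimum, fold, cells kept and sets, and those that leave out cells by Ccl5 amount, by 7 other-lymphocyte genes, by Ikzf2, or split by Cxcr3 were added after seeing the data.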

Additional observations from a re-analysis of the deposited data

Results flagged for a closer look

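The Ccl5-positive share of set 5, 11.71%, was far from the other sets, which lay between 3.731% and 6.655%. Its gap to the nearest set was 0.6335 of the whole range, above the critical value of 0.625 for 6 values. Of 28 values over 6 sets that were looked at it was the only 1 past its limit, and chance alone passes about 1 in 20 such groups. Set 5 also had the largest share of cells with 10 or more Ccl5 UMIs, 2.63%, and its median depth in Ccl5-positive cells, 1986.5 UMIs, lay within the range of the other sets. Without set 5 the share over the remaining sets was 5.11%.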

How the results depend on the processing

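No paired analysis was possible because no cell could be tied to a sample or its replicate number. Counts of genes called higher and lower against Ccl5-negative cells, 114 and 132, were 50 and 41 with 1 or more Ccl5 UMIs as the limit, 34 and 59 at 2-fold, and 200 and 64 with 0.5 UMIs added (a choice added later). Leaving out 1 set in turn they were 148 to 182 and 160 to 199, since fewer sets then have to share a direction. Against Ccr2-positive cells, 64 and 98 became 22 and 29 at 2-fold, 39 higher without cells with other-lymphocyte UMIs, and 44 to 72 and 94 to 105 over the sets left out. Against Tnfrsf9-positive cells, 76 and 78 became 18 and 13 at 2-fold, 49 higher without cells with other-lymphocyte UMIs, and 76 to 99 and 82 to 134 over the sets left out. The share of cells that are Ccl5-positive, 6.20%, was 15.3%, 4.42% and 2.72% at limits of 1, 3 and 5 UMIs, 3.93% after thinning to 1000 UMIs, 5.15% without cells with other-lymphocyte UMIs, and 5.11% to 6.72% over the sets left out. For the split by Cxcr3, 11 and 4 became 1 and 1 at 2-fold, 5 higher without cycling cells, and 9 to 21 and 6 over the sets left out. The cause of these differences was not tested apart from the number of sets and the stricter fold.

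Of 96 named genes 41 were called, and over 26 alternatives 10 kept their call in all that could test them: Cxcr3, Lilrb4a, Id2, Serpina3g, Nkg7, Lilr4b, Fgl2, Igfbp4, Il6ra and Rbpj. Myc reversed to a log2 ratio of 0.0169 with 1 or more Ccl5 UMIs. With that limit 23 calls were lost, Ccr7 among them. Without cells with UMIs of Cd8a, Cd8b1, Nkg7, Klrd1 or Klrb1c 11 were lost, among them Rhoc, Neb, Lgals3, S100a6 and Il2ra. Calls of Swap70 were lost in 16 alternatives. Depth limits the sparse genes: of the genes under 20 CPM in both groups, a set of Ccl5-positive cells often held no UMI, and the table cannot separate a low level from none.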

Other observations

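Genes outside the lists were also higher in Ccl5-positive cells, and were chosen here after their values were seen. AW112010, a transcript abundant in activated T cells, had 4130 CPM in Ccl5-positive cells and 1977 CPM in Ccl5-negative cells (log2 ratio 0.91). Myo1f, a class I myosin of leukocytes, had 67.6 and 20.9 CPM (log2 ratio 1.48), and Csf1, the macrophage growth factor, 23.0 and 8.94 CPM (1.35). Pglyrp1, a peptidoglycan recognition protein, had a log2 ratio of 0.73, and Odc1, the first enzyme of polyamine synthesis, 0.64. Rhoc, a small GTPase, had 24.99 and 6.14 CPM (1.96), and Chst2, a sulfotransferase, 25.7 and 8.29 CPM (1.59). H2-Ab1, a class II MHC chain, was called beside Cd74 on 37 UMIs in Ccl5-positive cells (0.59).

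Among genes called lower outside the lists, Cd9, a tetraspanin, had a log2 ratio of -0.88 and Lta, lymphotoxin alpha, -0.77. Tsc22d3, a glucocorticoid-induced gene, had -0.74. Dapl1, a gene of naive T cells, belongs to the resting and lymphoid-homing list and is already counted among the lower genes there. It had 4 UMIs in Ccl5-positive cells and 494 in Ccl5-negative cells (log2 ratio -2.97). Its call ended under 3 alternatives, 1 of them limited to cells with an Ikzf2 UMI.

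Among Ccl5-negative cells some genes separated sets 1, 2 and 3 from sets 4, 5 and 6, and no label says what the sets are. Igfbp4 stood at 122, 108 and 114 CPM in sets 1, 2 and 3 and at 38.0, 39.9 and 35.5 CPM in sets 4, 5 and 6. S100a6 stood at 182, 210.0 and 145 CPM and at 374, 359 and 314 CPM in the same order, and Cxcr3 at 67.0, 62.7 and 56.1 CPM and at 106, 111 and 102 CPM. In Ccl5-positive cells Cxcr3 stood at 179, 203 and 241 CPM in sets 1, 2 and 3 and at 282, 278 and 356 CPM in sets 4, 5 and 6. Igfbp4 there stood at 28.7, 38.0 and 19.7 CPM and at 7.51, 2.11 and 16.8 CPM. The ratios in the report were formed within sets, so these levels do not enter them as differences between sets. The levels by class of Ccl5 UMIs and the levels given as 1 value per group were pooled over sets. So were the shares of cells with a UMI, and such differences can enter all of these. Set 5 gave 196 of the 630 Ccl5-positive cells and 1234 of the 8607 Ccl5-negative cells. Haemoglobin Hbb-bs in Ccl5-negative cells stood at 744, 0.887 and 1.97 CPM in sets 1, 2 and 3 and at 2.52, 2284 and 133 CPM in sets 4, 5 and 6. The Ccl5-positive share of cells was also lower in sets 1, 2 and 3 (3.73% to 5.57%) than in sets 4, 5 and 6 (5.95% to 11.7%).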
